A study of Mus musculus with 6 samples.

Results

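Oxidative phosphorylation was examined in testis RNA through the genes of its protein subunits and of the factors that assemble them. The members were protein-coding genes whose GRCm38 symbol begins with Nduf, Uqcr, Cox, Atp5, Sdha, Sdhb, Sdhc, Sdhd or mt- and which had 10 or more counts in at least 2 libraries. Of the 55536 genes in the table, 120 carried such a name and 110 were kept, of which 101 are genes of the nucleus and 9 of mitochondrial DNA. Too few counts left out 7: mt-Atp6, mt-Atp8, mt-Nd3, mt-Nd4l, Cox4i2, Cox8b and a second Ensembl gene named Atp5o. A further 3, Ndufs5, Sdhb and Uqcrh, were left out by position, because they start in the stretch of chromosome 4 around the targeted genes, at 123712710, 140961203 and 116066965. As a description with no test, Ndufs5 had 79 and 81 counts in WT mice, 80 and 79 in P2KO mice, and 577 and 529 in DKO mice. Sdhb had 1640 and 2029 counts in WT mice, 2030 and 1685 in P2KO mice, and 1870 and 1637 in DKO mice. Uqcrh had 851 and 1170 counts in WT mice, 1097 and 880 in P2KO mice, and 1085 and 941 in DKO mice. For Sdhb and Uqcrh the genotypes overlapped. Ndufs5 has a near-identical copy on chromosome 16, the pseudogene BC002163 (99.4% identical over 319 bases), which had 262 and 334 counts in WT mice, 318 and 260 in P2KO mice, and 7 and 9 in DKO mice. DKO thus had more counts on Ndufs5 and fewer on its copy, and reads that fit both are counted for neither, so the level of Ndufs5 is uncertain.

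RNA was taken from whole testes of 4-month-old mice on an FVB/NJ background, 2 mice and so 2 libraries per genotype. WT mice were FVB/NJ. P2KO mice (Padi2 single KO) carry a gene trap in which LacZ and neomycin sequence stands in for part of the first exon of Padi2, and DKO mice (Padi2/Padi4 double KO) carry in addition a Cas9 edit in the first exon of Padi4, made in embryos already null for Padi2. The libraries were poly(A)-selected and strand-marking, and the deposited table assigned to genes 21939393 and 26081756 reads in WT, 27306679 and 23072179 in P2KO, and 26068171 and 23366962 in DKO. Padi2 (ENSMUSG00000028927, chromosome 4, 140906344 to 140952586) had 47 and 64 counts in WT mice, 100 and 55 in P2KO mice, and 59 and 83 in DKO mice. The genotypes overlapped, so these counts do not show a loss of Padi2 and do not check the P2KO label, and which exons they come from was not tested. Padi4 (ENSMUSG00000025330, chromosome 4, 140745865 to 140774236) had 20 and 43 counts in WT mice, 11 and 10 in P2KO mice, and 4 and 4 in DKO mice. Both DKO mice were below the other 4 in Padi4, with a log2 fold change against WT of -2.94 (SE, standard error, 0.513, adjusted p = 2.78e-04 in edgeR's quasi-likelihood fit). In the same fit Padi4 was not called in P2KO against WT, where both P2KO mice were below both WT mice (-1.63, SE 0.423, adjusted p = 0.0959). Nor was it called in DKO against P2KO (-1.31, SE 0.628, adjusted p = 0.404). P2KO and DKO were each compared with WT, as in the study, and DKO was also compared with P2KO. The comparisons share samples and are not independent of each other. Per the paper, the mice were kept as homozygous inbred lines, and the DKO line was bred from an edited founder. Loss of the genes and other differences between the lines therefore cannot be told apart.

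The respiratory chain passes electrons from NADH and succinate to oxygen through complexes I to IV in the inner mitochondrial membrane, and complex V, the ATP synthase, uses the proton gradient that this builds. Most subunits are made from nuclear genes. Mitochondrial DNA encodes a small core of complexes I, III, IV and V, transcribed as long RNAs from both strands that are cleaved into mRNAs, so that the chain needs the products of 2 genomes. In male germ cells some subunits are replaced by testis isoforms, among them those of Cox6b2, Cox7b2 and Cox8c in complex IV. Sorted by name, the nuclear members were 37 genes of complex I, 3 of complex II, 7 of complex III, 16 of complex IV, 17 of complex V and 21 assembly factors, and the mitochondrial members were 5 genes of complex I, 1 of complex III and 3 of complex IV.

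Levels of different genes were compared per length, as TPM (each gene's share of a library's transcripts after its counts are divided by merged exon length). Among the mitochondrial members as counted, mt-Co1, the catalytic subunit of complex IV, was the highest in WT at 4255 ± 54.8 TPM (mean ± SD, n = 2). It was followed by mt-Cytb, the cytochrome b of complex III, at 1969.9 ± 90.0 TPM, and by mt-Nd1 of complex I at 1798 ± 78.3 TPM. The WT values of mt-Cytb (1906 and 2034 TPM) both lay above those of mt-Nd1 (1743 and 1853 TPM). mt-Nd2 and mt-Nd5, in the membrane arm of complex I, stood at 1034 ± 35.3 TPM and 809 ± 3.71 TPM. mt-Nd4, also of that arm, was counted at 676 ± 15.0 TPM, but 876 of its 1378 bases are identical to a nuclear copy, and so are all but 1 of 483 of the 1545 bases of mt-Co1. How far this shifts their values was not tested, and mt-Nd4 is not ranked against the others. mt-Nd6, which is read from the opposite strand of the genome, was counted far lower, at 57.2 ± 10.3 TPM. These are levels in poly(A)-selected libraries, and how far the selection shifts the value of each mitochondrial mRNA was not tested. mt-Co1 alone took 45.6% to 47.4% of the counts on the 13 mitochondrial mRNA genes of a library. Of the 13, 6 had almost no counts, so this share holds for the counts and not for the mRNAs.

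The rest of the mitochondrial genes were almost without counts, and these lie in 1 block of the genome. mt-Co2 had 18 and 28 counts in WT mice, 17 and 17 in P2KO mice, and 10 and 8 in DKO mice. mt-Co3 had 6 and 19 counts in WT mice, 18 and 17 in P2KO mice, and 15 and 18 in DKO mice. mt-Atp6 had 9 and 16 counts in WT mice, 4 and 6 in P2KO mice, and 7 and 3 in DKO mice. mt-Atp8, mt-Nd3 and mt-Nd4l, which lie in the same block, had 2, 5 and 6 counts in all 6 libraries together. The genes on either side, mt-Co1 and mt-Nd4, had 420116 and 59722. The mt-Co2 to mt-Nd4l block runs from 7013 to 10173 of the mitochondrial genome. A stretch of chromosome 1 from 24611535 to 24616197 holds 7 annotated pseudogenes that are near-identical copies of genes of this block and of parts of mt-Co1 and mt-Nd4. The lowest identity among these 7 is 99.7% (Gm28438, a copy of mt-Nd3), and mt-Co2, mt-Atp6, mt-Co3 and mt-Nd4l are 100% identical to theirs over the aligned bases. For mt-Atp8 no annotated copy was found, although copies of its neighbours mt-Co2 and mt-Atp6 both lie in this stretch. Whether the stretch also holds a copy of mt-Atp8 was not tested, so its value is uncertain too. The 7 copies had 943 counts in all. STAR's gene counts take reads that map to 1 place, so a read that fits both copies is not counted for either. The values of mt-Co2, mt-Co3, mt-Atp6, mt-Nd3 and mt-Nd4l are therefore uncertain and do not measure their mRNA levels. Those of mt-Nd4 and mt-Co1 are uncertain in part. The first 80 bases of mt-Co2 (chrM:7013-7092, plus strand) and of its copy Gm28661 (chr1:24615486-24615565, minus strand) are shown, from GENCODE transcripts of GRCm38, because reads from either cannot be placed. They hold no difference, and over the 681 bases they share there is none.
mt-Co2: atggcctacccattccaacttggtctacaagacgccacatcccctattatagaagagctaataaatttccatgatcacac
Gm28661: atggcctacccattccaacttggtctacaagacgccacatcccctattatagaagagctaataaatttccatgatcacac
A copy of mt-Co1 on chromosome 2, Gm13340, differs at 37 of 1545 bases (97.6% identical), and had from 9 to 20 counts per library against 58862 to 77761 of mt-Co1. The first 80 bases of mt-Co1 (chrM:5328-5407, plus strand) and of Gm13340 (chr2:22589568-22589647, minus strand) hold 2 differences, in capitals, which let a read be placed.
mt-Co1: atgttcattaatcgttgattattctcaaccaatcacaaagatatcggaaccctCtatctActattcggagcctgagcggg
Gm13340: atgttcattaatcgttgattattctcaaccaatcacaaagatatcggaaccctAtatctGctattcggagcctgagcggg

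Nuclear members spanned a wide range of levels in WT. In complex I, Ndufv2, an iron-sulfur subunit of the NADH-oxidizing arm, was highest at 202 ± 5.27 TPM and Ndufb2 lowest at 0.305 ± 0.0349 TPM, with a median of 55.2 TPM over the 37 genes. Sdha, the flavoprotein of complex II, stood at 84.0 ± 8.05 TPM, against 71.5 ± 2.16 TPM for Sdhd and 29.0 ± 0.0881 TPM for Sdhc, the membrane anchors. In complex III, Uqcrc1, a core protein, reached 193 ± 13.5 TPM and Uqcr11 60.5 ± 1.01 TPM. In complex IV the range ran from Cox8c at 811 ± 48.1 TPM to Cox7a1 at 2.53 ± 0.301 TPM. In complex V, Atp5b, the catalytic beta subunit, was at 302 ± 21.5 TPM and Atp5o, part of the stalk that joins the rotor-driven head to the membrane part of the enzyme, at 9.55 ± 2.10 TPM. The assembly factors ran from Ndufaf3 at 359 ± 0.112 TPM to Cox16 at 0.357 ± 0.00509 TPM, with a median of 9.76 TPM. Other annotated genes on the same strand overlap 7 nuclear members. These are Ndufb2, Cox16, Cox17 and Atp5o (with Gm42420, Gm20498, Gm21987 and the second Atp5o), and Ndufb9, Ndufb8 and Atp5g2 (with Gm49356, Gm20538 and Mir688). Reads in such an overlap are assigned to neither gene, so their levels are uncertain. Near-identical copies were found for 27 of the 101 nuclear members (BLAST, at least 95% identity over 150 bases and 50% of the shorter transcript), and 36 overlap a gene on the other strand.

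Testis isoforms outweighed their somatic counterparts in every library. Cox6b2 was present at 354 ± 6.37 TPM in WT and Cox6b1 at 44.1 ± 0.173 TPM, and the ratio of their levels was 8.15 and 7.90 in WT mice, 7.28 and 7.75 in P2KO mice, and 6.41 and 6.21 in DKO mice. The DKO libraries lay below the others in this ratio, and an exact two-sided permutation test of DKO against WT gave p = 0.333, the smallest that 2 against 2 allows. Cox7b2 stood at 235 ± 7.79 TPM and Cox7b at 6.35 ± 0.182 TPM, with ratios of 36.9 and 37.2 in WT mice, 34.3 and 37.6 in P2KO mice, and 35.8 and 32.0 in DKO mice. Both DKO mice were below both WT mice in this ratio, and P2KO overlapped each of them. Cox7b has 2 near-identical copies, Gm13771 and Gm19503 (96.2% and 96.7% identical), with at most 5 counts in any library, so its level, and with it the ratio, is uncertain. Cox8c, the most abundant nuclear member of complex IV, was at 811 ± 48.1 TPM against 46.9 ± 0.899 TPM for Cox8a, with ratios of 16.3 and 18.3 in WT mice, 17.6 and 15.1 in P2KO mice, and 14.3 and 18.4 in DKO mice, with the genotypes overlapping. With the length of the longest principal transcript in place of merged exons, a setting chosen after the data were seen, the WT ratios were 13.3, 30.6 and 15.4.

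Isoforms known from muscle and other tissues were the minor form. Cox6a2, the heart and muscle form, had 17 and 27 counts in WT mice, 48 and 18 in P2KO mice, and 13 and 12 in DKO mice, and its level per length was 0.0137 of that of Cox6a1 in WT. Cox7a1, also a muscle form, had 13 and 14 counts in WT mice, 15 and 7 in P2KO mice, and 10 and 12 in DKO mice, a level 0.00801 of that of Cox7a2. Cox4i2, the form of lung, had from 1 to 7 counts per library, and Cox8b had 0 in all 6 libraries. Ndufa4l2, by contrast, was above Ndufa4, at 55.2 ± 3.38 TPM against 16.4 ± 0.178 TPM in WT, a ratio of 3.36 that was 1.74 with principal-transcript lengths. Outside the members, the testis cytochrome c Cyct had a ratio to the somatic Cycs of 8.82 and 8.66 in WT mice, 9.17 and 8.81 in P2KO mice, and 10.8 and 9.70 in DKO mice, so that here the DKO libraries lay above the others (exact p = 0.333 against WT). The ratio of the germ-cell ADP/ATP carrier Slc25a31 to Slc25a5 was 1.09 and 1.04 in WT mice, 0.979 and 0.850 in P2KO mice, and 0.918 and 1.01 in DKO mice, and 0.800 in WT with principal-transcript lengths, so which of the 2 is higher depends on the length used.

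**Figure D1:**
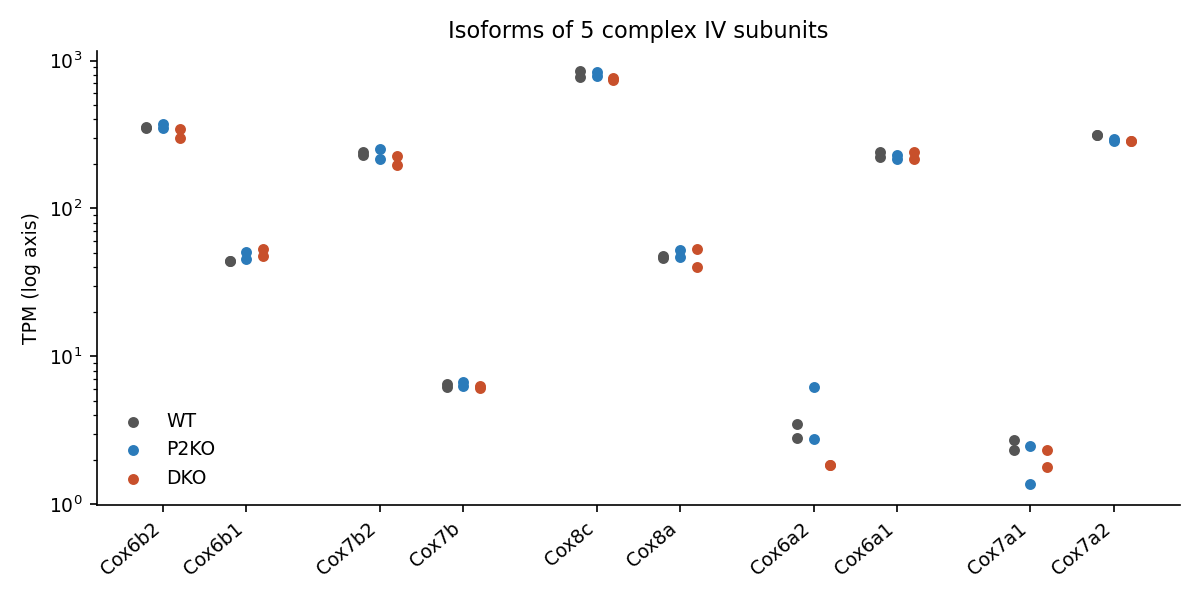
Level of paired isoforms of 5 complex IV subunits in TPM on a log axis, 1 point per library, coloured by genotype. Cox6b2, Cox7b2 and Cox8c lie above Cox6b1, Cox7b and Cox8a in all 6 libraries, and Cox6a2 and Cox7a1 lie below Cox6a1 and Cox7a2.

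Of the 13 mitochondrial mRNA genes, 7 had 1000 or more counts over the 6 libraries and 6 had fewer. Sums over the 13, and ratios made with them, thus rest mostly on 7 genes and do not measure the whole mitochondrial mRNA content. The share of counts on the 13 mitochondrial mRNA genes was 0.566% and 0.613% for WT, 0.611% and 0.601% for P2KO, and 0.654% and 0.626% for DKO. The DKO libraries lay above all others, and WT and P2KO overlapped. The share of counts on the 101 nuclear members was 0.559% and 0.585% for WT, 0.570% and 0.551% for P2KO, and 0.548% and 0.528% for DKO. Here the DKO libraries lay below all others. The ratio of mitochondrial to nuclear counts was thus 1.01 and 1.05 for WT, 1.07 and 1.09 for P2KO, and 1.19 and 1.19 for DKO. No genotype overlapped another in this ratio, with means of 1.03 ± 0.0253 in WT, 1.08 ± 0.0131 in P2KO and 1.19 ± 0.00634 in DKO (SD, n = 2), although for 2 against 2 libraries the exact permutation p cannot fall below 0.333, which each pair of genotypes gave. Without WT replicate 1, which had the lowest share, the log2 difference in the mitochondrial share between DKO and WT was 0.062 instead of 0.12, and that between P2KO and WT -0.016 instead of 0.040. Without WT replicate 2 they were 0.18 and 0.10. Summed per length instead, the nuclear members stood at 8125 and 8093 TPM in WT, 7962 and 7437 in DKO, and 8137 and 7906 in P2KO. In that measure DKO overlapped P2KO. The mitochondrial mRNA genes stood at 10529 and 10683 TPM in WT, 11156 and 10998 in P2KO, and 12295 and 11371 in DKO, with no overlap between genotypes.

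**Figure D2:**
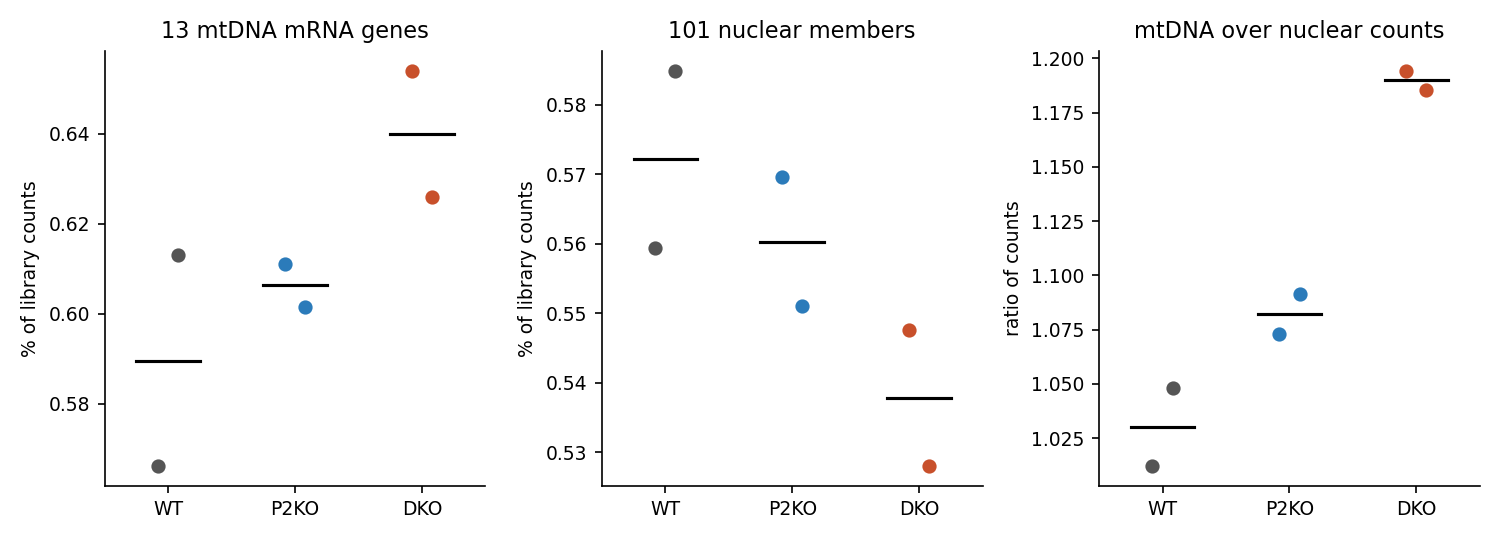
Share of each library's counts on the 13 mitochondrial mRNA genes and on the 101 nuclear members, and the ratio of the 2 sums, 1 point per library and a line at the mean (axes do not start at 0). Of the 13 mitochondrial genes, 6 were almost without counts, so the sums do not measure the whole mitochondrial mRNA content. In DKO the mitochondrial share is the highest, the nuclear share the lowest, and the ratio is 1.19 in both libraries against 1.01 and 1.05 in WT.

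Loss of Padi2 was addressed by P2KO against WT, although both P2KO libraries also had fewer Padi4 counts than WT, with no call. None of the 101 nuclear members and none of the 9 mitochondrial members passed the test in either direction, where edgeR's quasi-likelihood test, adjusted by Benjamini-Hochberg over all genes, called 0.198% of the 20744 tested genes higher and 0.14% lower at an adjusted p under 0.05. At an unadjusted p under 0.05, 1 nuclear member was higher, 4 were lower and no mitochondrial member was either, where 943 of the tested genes were higher and 834 lower. DESeq2 called no member. The median log2 fold change was -0.015 over the nuclear members, 0.034 over the mitochondrial members and 0.0035 over all tested genes. The first was 0.0099 without WT replicate 2 and the second -0.028 without WT replicate 1, so that neither kept its sign. Both P2KO libraries lay above both WT libraries for 9 nuclear members and 2 mitochondrial ones, and below them for 17 and 1, against 18.7% and 18.8% of all tested genes. The members with the most extreme log2 fold changes, none of which passed the test, were Cox16 (0.65), Cox6a2 (0.50) and mt-Co3 (0.43) at the top and Ndufaf6 (-0.50), mt-Co2 (-0.49) and Cox7a1 (-0.37) at the bottom. All 6 had fewer than 50 counts in every library.

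Loss of both genes was addressed by DKO against WT. Of the 9 mitochondrial members, mt-Nd5 rose and none was called lower, and of the 101 nuclear members Ndufa2 and Atp5e fell and none was called higher. Over all tested genes 2.06% were called higher and 1.16% lower, so that 2 of 101 nuclear members lie near the background. mt-Nd5 (ENSMUSG00000064367, chromosome M, 11742 to 13565), the subunit at the far end of the proton-pumping arm of complex I, had 14708 and 15516 normalized counts in WT mice, 15824 and 14679.5 in P2KO mice, and 19295 and 18358 in DKO mice. Both DKO libraries were above the other 4, which overlapped. The log2 fold change against WT was 0.32 (SE 0.0557, Benjamini-Hochberg adjusted p = 2.96e-04), a 1.25-fold difference. Within the mitochondrial counts, mt-Nd5 took 10.5% and 10.5% for WT, 10.7% and 9.94% for P2KO, and 11.8% and 11.8% for DKO. mt-Nd6 overlaps the end of mt-Nd5 on the other strand, and the pseudogene Gm4076 on chromosome 13, 95.2% identical over 954 bases, had 0 counts in all libraries. The call held in each alternative run, with adjusted p from 2.52e-07 to 0.0386.

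Ndufa2 (ENSMUSG00000014294, chromosome 18, 36742332 to 36744557), an accessory subunit of the matrix arm of complex I, had 682 and 776 normalized counts in WT mice, 767 and 776 in P2KO mice, and 559 and 593 in DKO mice. The DKO libraries were the lowest, and WT and P2KO overlapped. Ndufa2 fell, with a log2 fold change of -0.34 (SE 0.0886, Benjamini-Hochberg adjusted p = 0.0201) in edgeR. Tmco6, on the other strand, overlaps 66 of its bases. Atp5e (ENSMUSG00000016252, chromosome 2, 174461072 to 174464105), the epsilon subunit of the ATP synthase stalk, had 1194 and 1124 normalized counts in WT mice, 1169 and 1052 in P2KO mice, and 932 and 929.8 in DKO mice. Again both DKO libraries lay below the other 4, while P2KO and WT overlapped. In edgeR its log2 fold change came to -0.31 (SE 0.0774, Benjamini-Hochberg adjusted p = 0.0134). With a correction of the counts for gene length, neither call held (log2 fold change -0.25, adjusted p = 0.130 for Ndufa2 and -0.26, 0.0530 for Atp5e). Without WT replicate 2 the call of Ndufa2 was lost (log2 fold change -0.24, adjusted p = 0.380), and without WT replicate 1 that of Atp5e (-0.28, adjusted p = 0.0544). Without DKO replicate 1 both were lost (-0.31, adjusted p = 0.228 for Ndufa2 and -0.32, adjusted p = 0.119 for Atp5e), as they were without DKO replicate 2 (-0.39, adjusted p = 0.104 and -0.31, adjusted p = 0.148). In each of these runs the values stayed below 0. DESeq2 gave Ndufa2 an adjusted p of 0.0893. Over all alternatives the adjusted p ran from 0.00217 to 0.380 for Ndufa2 and from 0.00582 to 0.148 for Atp5e.

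None of the remaining mitochondrial genes passed the test, and those with ample counts differed by less. mt-Cytb had 21798 and 24373 normalized counts in WT mice, 23706 and 22683 in P2KO mice, and 26506 and 25121 in DKO mice, a log2 fold change of 0.16 against WT. mt-Nd2 had 10984 and 10969 normalized counts in WT mice, 11571 and 11107 in P2KO mice, and 12834 and 11594 in DKO mice, a log2 fold change of 0.15. Both genes were above the WT range in each DKO library. mt-Co1 had 66309.8 and 68246 normalized counts in WT mice, 67876 and 69915 in P2KO mice, and 74486 and 71637 in DKO mice (0.12). mt-Nd4 had 9162 and 9909 normalized counts in WT mice, 9751 and 9669.6 in P2KO mice, and 10649.8 and 10273 in DKO mice (0.13). For these the DKO libraries were likewise above both WT libraries. For mt-Nd1 (0.064) and mt-Nd6 (0.25) DKO and WT overlapped. These values depend on single libraries: without WT replicate 1 they were -0.017 for mt-Nd1, below 0, 0.078 for mt-Cytb, 0.073 for mt-Nd4 and 0.057 for mt-Nd6, without WT replicate 2 0.50 for mt-Nd6, and without DKO replicate 1 0.074 for mt-Nd2. With the gene length correction mt-Cytb, mt-Nd2, mt-Nd4 and mt-Co1 passed as well (log2 fold changes 0.24, 0.23, 0.20 and 0.18, adjusted p = 0.00241, 0.00714, 0.0160 and 0.0149), so that 5 mitochondrial members were called in place of 1. Without WT replicate 2, 3 were called: mt-Nd5, mt-Cytb and mt-Nd6. The median of the 9 was 0.073 without WT replicate 1. In all, 5 of 9 mitochondrial members had both DKO libraries above both WT libraries, against 21.6% of all tested genes, and mt-Co2, with its uncertain counts, had both below.

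The nuclear members leaned the other way by small amounts. Against 0.15 for the mitochondrial members and -0.0048 for all tested genes, their median log2 fold change in DKO was -0.075. It was -0.13 without DKO replicate 1 and -0.047 without WT replicate 2, and without WT replicate 1, 5 nuclear members were called lower in place of 2. Of the 101, 80 were below 0 (79.2%, against 51.2% of all tested genes), and 26 were lower and none higher at an unadjusted p under 0.05, where 1297 of the 20744 tested genes were lower and 1637 higher. Both DKO libraries lay below both WT libraries for 43 of 101 (42.6%) and above them for 5, where 21.6% of all tested genes were below and 21.6% above. Most members are short, with a median merged exon length of 1756 bases against 3330 over all tested genes, and short genes in general had medians below 0 in DKO. Nuclear members under 1000 bases had a median of -0.13 (n = 24) and all tested genes of that length -0.10 (n = 2854). From 1000 to 2000 bases the medians were -0.12 (n = 36) and -0.065 (n = 3423), and from 2000 bases up -0.016 (n = 41) and 0.021 (n = 14467). The shares with both DKO libraries below both WT libraries were 58.3% against 31.1%, 44.4% against 29.4%, and 31.7% against 17.9% in the same order. Members were also more highly expressed, with a median of 728 normalized counts against 206, and the part of depth in these shares was not tested. With the gene length correction the median of the nuclear members was -0.025 and that of the mitochondrial members 0.23.

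**Figure D3:**
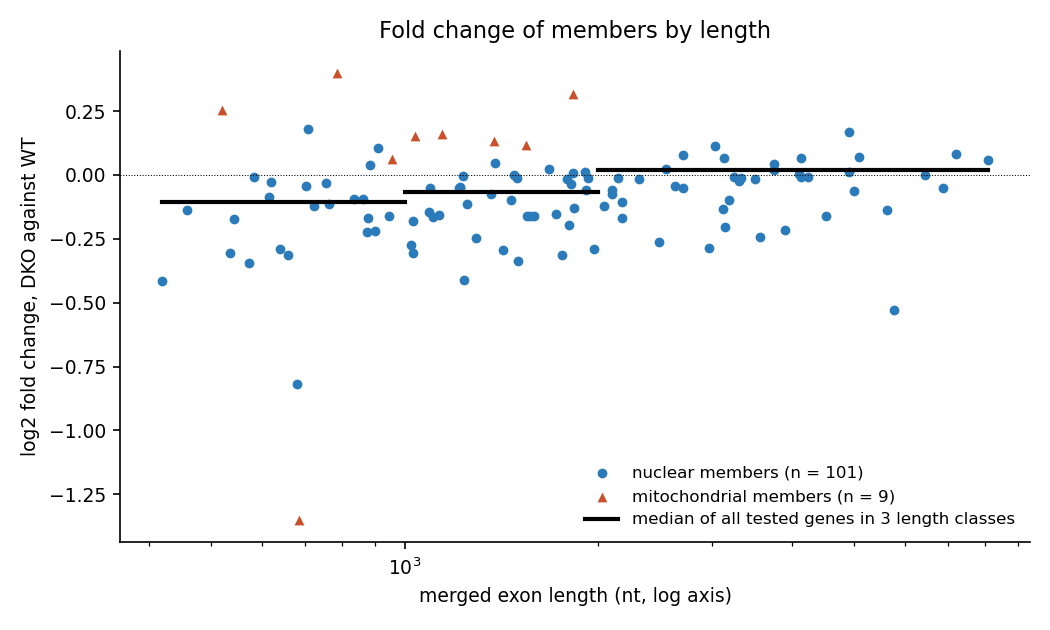
Log2 fold change of DKO against WT for 101 nuclear and 9 mitochondrial members by merged exon length on a log axis, with the median of all tested genes in 3 length classes as black lines. Nuclear members under 2000 bases lie mostly below 0, as do all tested genes of that length, while 8 of 9 mitochondrial members lie above 0.

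Members were sorted into complexes by name alone, so that Ndufa4 and Ndufa4l2 were counted with complex I. By complex, the medians of the nuclear members in DKO against WT were -0.10 for complex I, -0.0059 for complex II, -0.075 for complex III, -0.16 for complex IV, -0.025 for complex V and -0.036 for the assembly factors. Values below 0 were found for 33 of 37 members of complex I, 2 of 3 of complex II and 6 of 7 of complex III. They were found for 15 of 16 of complex IV, 11 of 17 of complex V and 13 of 21 assembly factors. Differences between complexes were not tested. The share below 0 was 51.2% over all tested genes, 66.2% over those under 1000 bases and 65.8% over those from 1000 to 2000 bases. The median merged exon length was 1026 bases in complex IV, 1363 in complex III, 1569 in complex I, 2039 in complex V, 2710 in the assembly factors and 3250 in complex II. Lengths and medians mostly followed the same order. The shortest, complex IV, had the lowest median (-0.16), and the longest, complex II, the highest (-0.0059). Exceptions were complex III (-0.075), shorter than complex I (-0.10), and the assembly factors (-0.036), longer than complex V (-0.025). The part of length in the order of the medians was not tested by complex. Cox6b2 had 3967 and 4053 normalized counts in WT mice, 4143 and 3953 in P2KO mice, and 3785 and 3370.3 in DKO mice (-0.16). Cox7b2 had 1245 and 1367 normalized counts in WT mice, 1181 and 1394 in P2KO mice, and 1226 and 1089.9 in DKO mice (-0.17). Cox8c had 3556 and 4054 normalized counts in WT mice, 3829 and 3673 in P2KO mice, and 3478 and 3455 in DKO mice (-0.14). Each had both DKO libraries below both WT libraries, and none passed the test (adjusted p = 0.187, 0.318 and 0.326 by edgeR), although without WT replicate 1 Cox8c did (-0.23, adjusted p = 0.0238). Without WT replicate 2 its log2 fold change was -0.038 (adjusted p = 0.942), and with the gene length correction -0.034 (0.885). Without DKO replicate 1 the values of Cox6b2 and Cox7b2 were -0.26 and -0.27, without DKO replicate 2 -0.084 and -0.094, and with the gene length correction -0.088 and -0.076. The somatic counterparts Cox6b1 (0.18), Cox7b (-0.049) and Cox8a (-0.028) did not pass either. Without the testis isoforms, the median of the other 98 nuclear members was -0.069. The smallest log2 fold changes of all, at low counts, were those of mt-Co2 (-1.35), Cox6a2 (-0.82) and Cox17 (-0.53), and the largest those of mt-Co3 (0.40), mt-Nd5 and mt-Nd6.

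Loss of Padi4 on top of Padi2 was addressed by DKO against P2KO, in which Padi4 itself was not called (-1.31, adjusted p = 0.404 in edgeR). mt-Nd5 rose, with a log2 fold change in edgeR of 0.30 (SE 0.0556, Benjamini-Hochberg adjusted p = 0.00129). Ndufa2 fell, with -0.42 (SE 0.0879, Benjamini-Hochberg adjusted p = 0.00557), and no other member was called in either direction, where 0.607% of all tested genes were called higher and 0.598% lower. Without P2KO replicate 2 both calls were lost (log2 fold change 0.26, adjusted p = 0.0933 for mt-Nd5 and -0.41, adjusted p = 0.0754 for Ndufa2), as they were without DKO replicate 1 (0.26, adjusted p = 0.102 and -0.38, adjusted p = 0.167). Without DKO replicate 2 that of Ndufa2 was lost (-0.46, adjusted p = 0.0535). A fit of the 2 genotypes alone, and fits without WT replicate 1 or WT replicate 2, each called 6 nuclear members lower and 2 mitochondrial members higher, and the gene length correction called 2 mitochondrial members. Medians were -0.061 for the nuclear members, 0.085 for the mitochondrial members and -0.0028 for all tested genes. Without DKO replicate 1 the first 2 were -0.10 and 0.053, and without DKO replicate 2 -0.036 and 0.13. With the gene length correction they were -0.027 and 0.15. Both DKO libraries lay below both P2KO libraries for 35 nuclear members and 1 mitochondrial member, and above them for 12 and 5, against 21.6% and 21.1% of all tested genes. The smallest values were those of Cox6a2 (-1.32, adjusted p = 0.120), mt-Co2 (-0.86) and Cox16 (-0.61). Cox6a2 rested on 48 counts in P2KO replicate 1, with 12 to 27 in the other 5 libraries, and passed the test with no filter on low counts, in a fit of the 2 genotypes alone, and without WT replicate 1, WT replicate 2 or P2KO replicate 2 (adjusted p = 0.0294, 0.0498, 0.0469, 0.0472 and 0.0427). Without P2KO replicate 1 its value was -0.60 (adjusted p = 0.818). After mt-Nd5, the largest were Cox10 (0.16), which makes the heme of complex IV, and mt-Cytb (0.15).

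**Figure D4:**
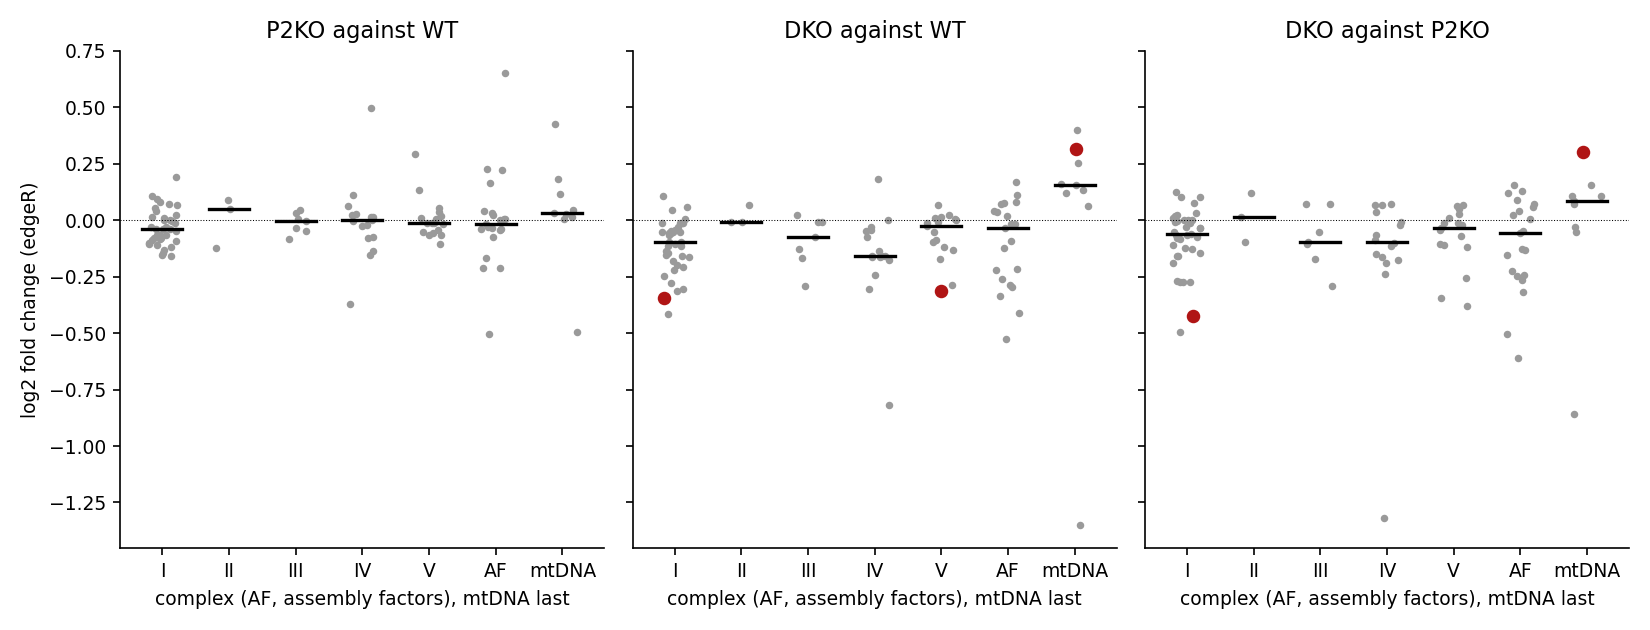
Log2 fold change from edgeR for each of the 110 members in the 3 comparisons, by complex for nuclear members (AF, assembly factors) and together for the 9 members of mitochondrial DNA. Black lines are medians and large red points the members called: none in P2KO against WT, Ndufa2, Atp5e and mt-Nd5 in DKO against WT, and Ndufa2 and mt-Nd5 in DKO against P2KO.

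Other genes of the pathway were read the same way. Of 27 tested assembly factors outside the naming rule, 1 fell in DKO against WT, Uqcc2, which assembles complex III: it had 3341 and 3183 normalized counts in WT mice, 3036 and 3145 in P2KO mice, and 2767 and 2656 in DKO mice. The DKO libraries were the lowest, and its log2 fold change was -0.27 (SE 0.0622, Benjamini-Hochberg adjusted p = 0.00868) by edgeR, which called 1.16% of all tested genes lower. The call was lost with the gene length correction (-0.18, adjusted p = 0.114) and without DKO replicate 1 (-0.30, adjusted p = 0.0507) or DKO replicate 2 (-0.24, adjusted p = 0.202). The median of these factors was -0.078 in DKO against WT, and none was called in the other comparisons. The mobile carrier genes Cycs, Cyct, Slc25a3, Slc25a4, Slc25a5 and Slc25a31 had a median of -0.044, with none called in any comparison. None of 12 genes that copy, transcribe or stabilize mitochondrial DNA and its RNA was called in any comparison, with a median of -0.038 in DKO against WT. Among them Tfam, which packages mitochondrial DNA, had 3801 and 4462 normalized counts in WT mice, 3495 and 3609 in P2KO mice, and 3802 and 3798 in DKO mice, and Polrmt, the mitochondrial RNA polymerase, 825 and 679 normalized counts in WT mice, 807 and 794 in P2KO mice, and 821 and 763 in DKO mice. For both, DKO and WT overlapped. The 8 nuclear regulators, among them Nrf1, Gabpa and Ppargc1a, had a median of -0.012 and no call. Of 76 tested genes of the mitochondrial ribosome, none was called in any comparison by edgeR, 65 were below 0 in DKO against WT (85.5%, against 51.2% of all tested genes), and the median was -0.088. In P2KO against WT 75.0% were below 0 (median -0.059), against 49.0% of all tested genes, and in DKO against P2KO 60.5% (median -0.031), against 50.8%. At an unadjusted p under 0.05, 1 gene of the carriers and 7 of the ribosome were lower in DKO against WT, 1 of the 12 was higher and none of the regulators was either, where 1297 of the 20744 tested genes were lower and 1637 higher. DESeq2 called none of these 4 lists in any comparison.

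Markers of the cell types of the testis were present in each library. Spermatids, marked by 8 genes with Prm2 the most abundant, summed to 398025 and 408091 normalized counts in WT, 342256 and 378392 in P2KO and 372565 and 371116 in DKO. WT lay above the others. Tnp2 fell in P2KO against WT (-0.29), Spaca1 fell in DKO against P2KO (-0.25), and Tnp1 and Prm1 fell in DKO against WT, by edgeR, with log2 fold changes of -0.25 (SE 0.0620, Benjamini-Hochberg adjusted p = 0.0130) and -0.22 (SE 0.0586, Benjamini-Hochberg adjusted p = 0.0302). Of all tested genes 0.14%, 0.598% and 1.16% were called lower in these comparisons. With the gene length correction Tnp1 (-0.15, adjusted p = 0.200), Prm1 (-0.12, adjusted p = 0.331) and Spaca1 (-0.21, adjusted p = 0.0590) did not pass, nor did any of the 3 without DKO replicate 1 or DKO replicate 2. Tnp2 did not pass without P2KO replicate 1 (-0.27, adjusted p = 0.0784), nor Spaca1 (-0.15, adjusted p = 0.614), nor Prm1 without WT replicate 2 (-0.16, adjusted p = 0.0992). Other spermatid markers went the opposite way with no call: Acrv1 (0.14) and Spaca1 (0.16) in P2KO against WT, and Tnp2 (0.15) and Akap4 (0.13) in DKO against P2KO, each at an unadjusted p under 0.05, and Acrv1 (0.051) and Akap4 (0.093) in DKO against WT. Leydig cells, the steroid-making cells between the tubules, are rich in mitochondria. Their 6 markers, led by Cyp17a1, summed to 16473 and 15791 normalized counts in WT, 18858 and 16569 in P2KO and 22513 and 18042 in DKO, and 4 of 6 rose in DKO against WT (Cyp17a1, Cyp11a1, Star and Hsd3b6), by 0.28 to 0.51 on the log2 scale by edgeR, where 2.06% of all tested genes were called higher. Hsd3b6 also rose in DKO against P2KO (0.63). DKO replicate 1 was the highest. Without it the log2 fold change was 0.076, adjusted p = 0.805 for Cyp17a1, 0.074, adjusted p = 0.811 for Cyp11a1 and 0.31, adjusted p = 0.0725 for Hsd3b6, so that these calls were lost, and 0.49, adjusted p = 0.0162 for Star. By DESeq2 1 Leydig marker, Hsd3b6, and no spermatid marker was called in DKO against WT. DESeq2 also called Tnp2 in P2KO against WT and Hsd3b6 in DKO against P2KO, but not Spaca1. With the replicate block in edgeR, Spaca1 did not pass in DKO against P2KO (-0.25, adjusted p = 0.0713). Cyp11a1 did not pass in DKO against WT with the block (0.27, adjusted p = 0.0716), upper-quartile scaling (0.25, 0.0524) or a fit of the 2 genotypes alone (0.27, 0.0765). Spermatocytes (7 markers, led by Ldhc) summed to 121328 and 123668 normalized counts in WT, 121332 and 118448 in P2KO and 120792 and 120122 in DKO, with none called by edgeR or DESeq2 and none at an unadjusted p under 0.05. In whole tissue, a different number of cells and a different amount of RNA per cell cannot be told apart. The part of these cell types in the values of the members was not tested.

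None of the Sertoli, spermatogonial, myoid, macrophage, endothelial, blood, striated muscle and epididymal markers was called by edgeR or DESeq2 in any comparison. At an unadjusted p under 0.05 in DKO against WT, 1 marker of spermatogonia, 1 of macrophages, 1 of endothelium and 2 of blood passed, as did 1297 of the tested genes as lower and 1637 as higher. The 7 Sertoli markers, led by Clu, summed to 21314 and 20043 normalized counts in WT, 20767 and 21682 in P2KO and 21177 and 18739 in DKO, and the 7 spermatogonial markers, led by Uchl1, to 2562 and 2582 normalized counts in WT, 2570.5 and 2626 in P2KO and 2396 and 2395 in DKO. WT and DKO overlapped for Sertoli cells, and for spermatogonia both DKO mice were below both WT mice. The 5 markers of peritubular myoid and smooth muscle, led by Acta2, summed to 1471 and 1595 normalized counts in WT, 1326 and 1513 in P2KO and 1742 and 1480.0 in DKO, the 5 of macrophages, led by Mrc1, to 1431 and 1641 normalized counts in WT, 1340.2 and 1534 in P2KO and 1507 and 1640.1 in DKO, and the 4 of endothelium, led by Vwf, to 652 and 597 normalized counts in WT, 651 and 641 in P2KO and 616 and 686 in DKO. The blood markers, led by Alas2, summed to 796 and 1054 normalized counts in WT, 531 and 907 in P2KO and 783 and 772 in DKO, with Hba-a2 at 0. Striated muscle, where Cox6a2 and Cox7a1 are the main forms, had 8 markers that summed to 410.1 and 371 normalized counts in WT, 397 and 471 in P2KO and 450.2 and 421 in DKO, with Actn3 the most abundant, while Mb, Acta1 and Tnnt3 had at most 7 counts in any library. Among the 8 adipocyte markers, led by Adipoq and summing to 377 and 417 normalized counts in WT, 349 and 376 in P2KO and 366 and 348 in DKO, Car3 was called: it had 10 and 30 counts in WT mice, 0 and 0 in P2KO mice, and 8 and 14 in DKO mice, and so by edgeR fell in P2KO against WT and was higher in DKO than in P2KO, with no fold given against the zeros of P2KO. DESeq2 called the first of these and gave no adjusted p for the second, which edgeR did not call without P2KO replicate 1, P2KO replicate 2 or DKO replicate 2 (adjusted p = 0.127, 0.0906 and 0.189). The 5 epididymal markers, led by Rnase10, summed to 112 and 142 normalized counts in WT, 101 and 121 in P2KO and 122 and 119 in DKO. Low counts left 3 of 5 blood, 4 of 8 adipocyte, 3 of 8 striated muscle and 1 of 5 epididymal markers in the test.

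The promoters of nuclear respiratory genes are known for sites of the regulators NRF1, GABP and YY1. RefSeq promoter windows of GRCm38.p6 ran from 250 bases before to 50 after the start of a gene. Members were looked up by Ensembl id, then by symbol, then by a unique synonym, which gave a window for 83 of the 101 nuclear members. The tested genes were looked up by symbol alone. The first listed window of each member and tested gene was searched on both strands. The NRF1 core CGCANGCG was found in 27 of 83 windows (32.5%), against 14.2% of the 14083 tested genes with a window and 8.21% of all 32851 windows. The ETS and GABP motif CCGGAAGT was found in 8.43%, against 6.78% and 3.89%, and the YY1 motif AAGATGGCG in 9.64%, against 2.51% and 1.40%. None of these motifs was found for Cox6b2 and Cox7b2, the 2 testis isoforms with a window, nor for their counterparts Cox6b1 and Cox7b. A match is a description of letters and not of binding. The stretches of Sdha (chr13:74350241-74350340) and Cox6a1 (chr5:115349059-115349128), both on the minus strand, are shown as examples of members with several matches to the NRF1 core, in capitals, and that of Cox6b2 (chr7:4753095-4753194, minus strand) as a testis isoform with none. Those of Sdha and Cox6b2 end 1 base before the start of the gene and that of Cox6a1 101 bases before it.
Sdha: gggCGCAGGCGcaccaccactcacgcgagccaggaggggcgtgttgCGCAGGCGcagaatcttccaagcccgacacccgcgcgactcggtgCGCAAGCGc
Cox6a1: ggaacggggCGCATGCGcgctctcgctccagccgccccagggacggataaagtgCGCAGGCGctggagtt
Cox6b2: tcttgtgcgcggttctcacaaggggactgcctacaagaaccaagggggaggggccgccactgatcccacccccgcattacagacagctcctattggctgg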

How the data were processed

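The counts are, per the authors, raw reads per Ensembl gene from libraries trimmed with Trim Galore and cutadapt and aligned with STAR to GRCm38, and were deposited without normalization. Tool versions and the strand column taken were not given. The members and lists were chosen with earlier results of these data known. In R 4.3.3, edgeR 4.0.16 fitted all 6 libraries at once by genotype (TMM scaling, filterByExpr with a minimum of 10 counts, quasi-likelihood F test), with p adjusted by Benjamini-Hochberg over 20744 genes and called under 0.05. Each SE was derived from the test, as the absolute log2 fold change divided by the square root of its F statistic. Normalized counts are counts scaled by the TMM library sizes. Single values per library were compared by two-sided exact permutation tests, which for 2 against 2 reach no lower than 0.333. TPM used merged exon length of GENCODE M21. Near-identical copies were sought with BLAST 2.17.0. The fit was tested on simulated data. Genes named are the mitochondrial mRNA genes, the tissue isoforms and their counterparts, the Sdh genes, every called member, the 3 largest and 3 smallest log2 fold changes of each comparison, and the most and least abundant nuclear member of each complex. Alternatives were RLE and upper-quartile scaling, no filter or a mean of 50 counts, a replicate block, DESeq2 1.42.0, fits of 2 genotypes, corrections for gene length (with and without the block) and for GC, genes off chromosome 4, a prior count of 2, and leaving out each library. GC was taken from the longest transcript, a choice made after seeing the data, as were members with no near-identical copy and principal-transcript lengths. Genes named from the other lists and the promoters shown were chosen after their values were seen. The assembly factor Coa1 was not matched in the annotation.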

Additional observations from a re-analysis of the deposited data

How the results depend on the processing

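Of 114 log2 fold changes of named members, 101 stayed on their side of the threshold under each alternative run and 13 crossed it, and no called value changed sign. No nuclear member was called higher, and no mitochondrial member lower, under any of them. In DKO against WT, 2 nuclear members were called lower and 1 mitochondrial member higher. DESeq2 called 1 nuclear member lower. Upper-quartile scaling, no filter, a mean of 50 counts and the GC correction each called 3 nuclear members lower, the third being Cox6c (adjusted p = 0.0487 at most), which was named after its values were seen and is not among the 114. The gene length correction called 0 nuclear members lower and 5 mitochondrial members higher, both without and with the replicate block, with nuclear medians of -0.025 and -0.020 and mitochondrial medians of 0.23 and 0.23. In DKO against P2KO, it called 2 mitochondrial members higher in each form, the fit of the 2 genotypes called 6 nuclear members lower and 2 mitochondrial members higher, and no filter called 2 nuclear members lower. Among members with no near-identical copy, a choice made after seeing the data, 0 mitochondrial members were called higher in either comparison, since mt-Nd5 has a copy, and the mitochondrial median in P2KO against WT was 0.12. As the ratio of mitochondrial to nuclear counts, the log2 difference of DKO from WT was 0.21.

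With the replicate block, 2 nuclear members were called lower and 1 mitochondrial member higher in DKO against WT, and 1 and 1 in DKO against P2KO, and the nuclear median in DKO against WT was -0.075. Replicate numbers do not pair the mice: the correlation across genes of the replicate differences was -0.057 between WT and P2KO, 0.057 between WT and DKO and -0.050 between P2KO and DKO.

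Leaving out each library in turn, where the lone mouse is assumed to vary like the other genotypes, gave 0 to 5 nuclear members lower in DKO against WT and 0 to 6 in DKO against P2KO, and 1 to 3 and 0 to 2 mitochondrial members higher. Nuclear medians ran from -0.052 to 0.0099 in P2KO against WT, -0.13 to -0.047 in DKO against WT and -0.10 to -0.036 in DKO against P2KO, and mitochondrial medians from -0.028 to 0.083, 0.073 to 0.19 and 0.053 to 0.13. The log2 difference in the mitochondrial share ran from 0.062 to 0.18 in DKO and -0.016 to 0.10 in P2KO. The causes of these shifts were not tested. The fit has 2 mice per genotype and 3 residual degrees of freedom.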
